A study of Mus musculus with 12 samples.

Results

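SIM-A9 cells, a mouse microglial line, were given the compound C13 and then aggregates of TDP-43 or a sham preparation, and the 2 kinds of culture were compared across all genes after 4 h. The comparison rests on 6 of the 12 libraries of the series, chosen by their group labels, with 3 labelled C13_TDP43 (C13 + TDP-43) and 3 labelled C13_NoAgg (C13 + sham). Each library was read as a table of total RNA and a table of nascent RNA, which holds the reads that carry the marks of a 4-thiouridine pulse (SLAM-seq).

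The groups were as follows. C13 + TDP-43 cells received polymyxin B, an antibiotic that binds endotoxin, at 10 µM for 1 h, then C13 at 10 µM for 1 h, then TDP-43 aggregates at 5 µg/mL for 2.5 h, after which 4-thiouridine at 100 µM was added for a further 90 min. C13 + sham cells were handled alike with a preparation holding no aggregates. The DMSO + TDP-43 and DMSO + sham groups, also of 3 libraries each, had the solvent in place of C13 and shared polymyxin B and the pulse, so that no culture of the series lacked them. The series title names C13 as an inhibitor of the kinase MOK. The labels call the libraries biological replicates and name no day or passage, so the p-values measure the spread between these libraries, which may be partly technical. All groups come from this 1 established line, of C57BL/6 origin, so a result holds for the line and not for microglia in tissue.

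TDP-43, encoded by Tardbp, is a nuclear RNA-binding protein that collects in cytoplasmic aggregates in amyotrophic lateral sclerosis and frontotemporal dementia. Microglia, the macrophages of the brain, take up such material and can answer through NF-kB, which induces cytokine and chemokine genes, and through type I interferon, whose receptor activates factors that bind interferon-stimulated response elements in the promoters of antiviral genes. In SLAM-seq, iodoacetamide alters 4-thiouridine so that labelled bases are read as C in place of T, which separates RNA made during the pulse from older RNA.

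The C13 + TDP-43 libraries held 25701443 to 35422964 total reads and 767433 to 1168511 nascent reads. C13 + sham libraries held 17436397 to 41779882 total reads and 558608 to 786491 nascent reads. Nascent reads were 2.91% ± 0.435 of all reads in C13 + TDP-43 and 2.64% ± 0.683 in C13 + sham (SD, n = 3 each), a difference of 0.264 percentage points (two-sided exact permutation p = 0.6, where 0.1 is the smallest p that 3 against 3 can give). C13 + sham replicate 3 and DMSO + TDP-43 replicate 3 stood apart from the other libraries on the first principal component of nascent RNA. In total RNA the ends of the first component were C13 + sham replicates 3 and 2, and DMSO + TDP-43 replicate 3 was the highest on the second. Results without the 2 libraries leave out the pair that stood apart in nascent RNA, from both tables. Mitochondrial ribosomal RNA took 1.51%, 1.54% and 1.29% of total reads in C13 + TDP-43, against 1.80%, 2.37% and 3.70% in C13 + sham. Every C13 + TDP-43 library was below every sham library (two-sided exact permutation p = 0.1), and the part of this in the results that follow was not tested. Of 15 microglial markers, 14 reached 5 CPM (read counts scaled to a common library size), with a sum of 3926 to 4259 CPM in C13 + TDP-43 and 3525 to 4379 CPM in C13 + sham. The 7 fibroblast markers had no read, the 11 neuronal markers summed to at most 0.870 CPM in C13 + TDP-43 and 1.01 CPM in C13 + sham, and 5 of 7 lymphocyte markers had no read. Of 8 astrocyte markers only Aldoc reached 5 CPM, with a sum of 185 to 251 CPM in C13 + TDP-43 and 172 to 257 CPM in C13 + sham, while Gfap, Aqp4, Aldh1l1 and Gja1 had no read. Of 6 endothelial markers only Kdr did so (108 to 134 CPM with aggregates and 122 to 149 CPM with sham, with no read of Cdh5, Cldn5 or Tek). Of 10 oligodendrocyte markers Mbp and Cnp did so (31.7 to 35.7 CPM with aggregates and 21.96 to 32.5 CPM with sham), and 6 had no read. In bulk RNA of this kind, fewer cells that express a gene and less RNA per cell cannot be told apart.

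No gene passed an adjusted p of 0.05 in edgeR, among 7078 genes tested in nascent and 11827 in total RNA. Before adjustment, 1045 total genes had a p under 0.05 (8.84% of those tested), of which 606 were higher with aggregates (5.12%) and 439 lower (3.71%). So had 598 nascent genes (8.45%), of which 367 were higher (5.19%) and 231 lower (3.26%). DESeq2 called 83 total genes higher (0.735%) and 16 lower (0.142%), and 57 nascent genes higher (0.942%) and 20 lower (0.331%). All 3 C13 + TDP-43 libraries were above all 3 C13 + sham libraries for 791 total genes (6.69%) and 557 nascent genes (7.87%), and all 3 were below for 718 (6.07%) and 370 (5.23%). The median log2 fold change of all genes was -0.008 in total and 0.04 in nascent RNA, with 49.2% and 51.3% of genes higher. Leaving out C13 + TDP-43 replicate 3 reduced the total genes at an unadjusted p under 0.05 to 669 in place of 1045. Since no gene passed, "higher" and "lower" below describe the values measured, with a log2 fold change of C13 + TDP-43 over C13 + sham and its standard error.

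Antiviral effector genes induced by type I interferon had the highest median of the pathway lists in total RNA. Of 47 effectors tested, out of 61 listed, 37 were higher with aggregates and 10 lower, with a median log2 fold change of 0.54, against -0.008 for all genes. At an unadjusted p under 0.05 there were 9 higher and 0 lower, where all genes gave 5.12% and 3.71%. In DMSO the same 47 genes had a median of 0.16. Without the 2 libraries that stood apart, 35 were higher and the median was 0.51, and 11 of the 47 had an unadjusted p under 0.05 in either direction, as had 1146 of all 12327 genes then tested (9.3%).

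Total Cxcl10, a chemokine that draws T cells and is induced by interferon, had 22.7, 44.1 and 68.9 CPM in C13 + TDP-43, against 13.3, 6.15 and 11.1 CPM in C13 + sham. The groups did not overlap, and the 3 aggregate libraries were spread more widely than the sham libraries (log2 fold change 2.15, SE 0.41, edgeR adjusted p = 0.226). Total Rsad2, the antiviral enzyme viperin, had 146, 120.3 and 95.1 CPM in C13 + TDP-43 and 41.8, 61.3 and 51.9 CPM in C13 + sham (1.22, SE 0.26, edgeR adjusted p = 0.226). Total Isg15, a ubiquitin-like protein that is joined to other proteins, had 72.4, 65.8 and 39.3 CPM in C13 + TDP-43, against 29.2, 20.1 and 7.03 CPM in C13 + sham (1.66, SE 0.44, edgeR adjusted p = 0.343). Both genes were separated by group, and the sham replicate that stood apart was the lowest for Isg15, whose log2 fold change was 1.27 without the pair of libraries that stood apart. Rtp4, an interferon-induced chaperone of receptors, had 8.52, 9.67 and 14.7 CPM with aggregates and 4.04, 2.12 and 2.67 CPM with sham, and its annotation overlaps another gene on the same strand. These 4 genes were the effectors that DESeq2 called.

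Further effectors included Adar, which edits adenosines in double-stranded RNA, with 71.8, 70.8 and 59.1 CPM in C13 + TDP-43 and 45.6, 53.6 and 27.1 CPM in C13 + sham. In DMSO, Adar averaged 43.2 CPM with aggregates and 55.9 CPM with sham, so its log2 fold change was 0.68 (SE 0.26) under C13 and -0.37 (SE 0.26) in DMSO. Dtx3l, a ubiquitin ligase that works with PARP9, had 77.4, 127 and 135 CPM with aggregates and 32.7, 44.2 and 95 CPM with sham, where sham replicate 3 lay inside the aggregate range. Isg15 and Cxcl10 also differed in how they stood in DMSO: Isg15 averaged 33.9 CPM in DMSO + TDP-43 and 33.0 CPM in DMSO + sham, while Cxcl10 averaged 36.1 CPM in DMSO + TDP-43 and 19.0 CPM in DMSO + sham. The difference between the 2 drug arms did not pass for any of these genes (edgeR adjusted p of the difference 0.485 for Isg15, 0.603 for Cxcl10 and 0.478 for Adar).

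**Figure D1:**
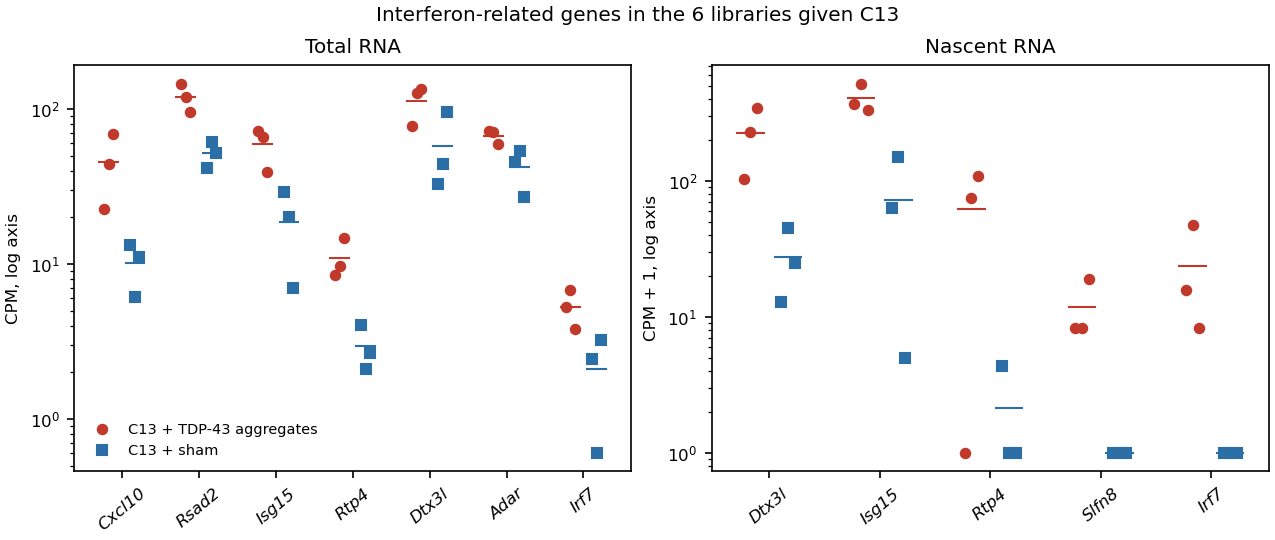
CPM of interferon-related genes in each of the 6 libraries given C13 (points, left total RNA, right nascent RNA as CPM + 1, log axes; the line is the mean of 3). Total Cxcl10, Rsad2, Isg15, Rtp4 and Adar have every aggregate library above every sham library, and nascent Slfn8 and Irf7 had no read in the sham libraries.

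Newly made RNA of interferon effectors was read from fewer genes. Of 25 effectors tested in nascent RNA, 18 were higher with aggregates and 7 lower. Of these, 7 higher and 0 lower genes met an unadjusted p under 0.05, where all nascent genes gave 5.19% and 3.26%. Their median log2 fold change was 1.23, against 0.04 for all genes and 0.50 for the same effectors in DMSO. Nascent Dtx3l had 103, 227 and 344 CPM in C13 + TDP-43 and 11.8, 44.2 and 23.8 CPM in C13 + sham, with no overlap (3.07, SE 0.88, edgeR adjusted p = 0.53). Nascent Isg15 had 366, 519 and 331 CPM with aggregates and 62.5, 149 and 3.97 CPM with sham (2.50, SE 0.84, edgeR adjusted p = 0.53). Nascent Rsad2 had 900.3, 960.3 and 807 CPM with aggregates, all above the 254, 479.5 and 462 CPM with sham. Nascent Slfn8, a Schlafen family gene, had 7.33, 7.29 and 18.1 CPM with aggregates and no read in the 3 sham libraries. Its 30 reads were at least 5.76-fold higher than a floor of 3 counts over the sham group. Total Slfn8 pointed the other way with overlapping groups, at 6.43, 4.19 and 1.30 CPM with aggregates and 16.5, 2.57 and 3.91 CPM with sham (-0.94, SE 1.04).

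The regulators of the pathway were mixed. Of 19 regulator, interferon and receptor genes tested in total RNA, 7 were higher and 12 lower, with a median of -0.08, while 9 of 16 were higher in nascent RNA with a median of 0.65. Nascent Irf7, which drives the second wave of interferon genes, had 14.7, 46.2 and 7.25 CPM with aggregates and no read with sham. Its 75 reads were at least 14.4-fold higher than the floor of 3 counts over the sham group. Total Irf7 had 5.30, 6.79 and 3.83 CPM with aggregates and 2.43, 0.604 and 3.24 CPM with sham, without overlap. Irf2, a factor that can repress interferon genes, was lower, with 6.11, 7.49 and 3.595 CPM with aggregates and 14.1, 13.7 and 8.82 CPM with sham (-1.09, SE 0.48). Ifnb1, the gene of interferon beta, had no read in the 6 C13 libraries. Among sensors of foreign nucleic acid, nascent Cgas, which makes cyclic GMP-AMP on cytoplasmic DNA, had 78.2, 88.3 and 26.6 CPM with aggregates and 5.07, 21.2 and 0 CPM with sham. Of the 11 sensing genes tested in nascent RNA 9 were higher, and 9 of 16 in total RNA.

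The promoters of 3 of these genes are shown because each holds a match to the response element that interferon-activated factors bind. The motif searched was GAAA, any 2 bases and GAAA again, on both strands of the RefSeq promoter windows, which run 250 bases before to 50 bases after each gene start in GRCm38.p6. Capitals mark the match, which reads as TTTC, any 2 bases and TTTC where it lies on the other strand. The first window is chr4:156200830-156200941 on the minus strand, where 3 matches overlap, the second is chr12:26456518-26456617 on the minus strand and the third is chr5:92349048-92349139 on the minus strand, all written 5′ to 3′ along the gene.
Isg15: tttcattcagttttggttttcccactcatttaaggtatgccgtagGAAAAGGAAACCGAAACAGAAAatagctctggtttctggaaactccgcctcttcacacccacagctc
Rsad2: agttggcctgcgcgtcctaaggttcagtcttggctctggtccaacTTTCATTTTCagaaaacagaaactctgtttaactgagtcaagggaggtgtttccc
Cxcl10: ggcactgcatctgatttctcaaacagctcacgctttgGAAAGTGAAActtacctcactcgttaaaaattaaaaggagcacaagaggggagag

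The matches end 56, 110 and 203 bases before the annotated start of Isg15, Rsad2 and Cxcl10. Of 39 effectors with a promoter entry, 22 held the motif (56.4%), against 1079 of 27025 genes of the table (3.99%) and 337 of 8873 genes tested in total RNA (3.80%). Among those 22 tested effectors, 17 were higher with aggregates with a median log2 fold change of 0.65, and among the 17 effectors without the motif 14 were higher with a median of 0.50. The 315 other tested genes with the motif had 48.9% higher and a median of -0.01. A match is a description of these letters and not a bound site.

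Genes of inflammatory cytokines, chemokines and enzymes were higher for 15 of 24 tested in total RNA, with a median of 0.31 (0.17 in DMSO). At an unadjusted p under 0.05 there were 4 higher and 0 lower (5.12% and 3.71% of all genes). The median was 0.10 without C13 + sham replicate 2. It was 0.48, 0.21 and 0.18 without C13 + TDP-43 replicates 1, 2 and 3 in turn. Total Tnf, which encodes the cytokine TNF, had 73.4, 102 and 86.3 CPM in C13 + TDP-43 and 38.2, 69.0 and 41.2 CPM in C13 + sham, with no overlap (0.82, SE 0.26, edgeR adjusted p = 0.486). In DMSO it averaged 63.4 CPM with aggregates and 65.9 CPM with sham. Ccl9, a macrophage chemokine, had 16.8, 15.3 and 16.5 CPM with aggregates and 10.7, 6.35 and 9.01 CPM with sham. Ccl5, which attracts T cells, had 8.44, 6.12 and 4.44 CPM with aggregates and 2.89, 2.52 and 2.57 CPM with sham, and Cxcl2, which attracts neutrophils, had 64.7, 114 and 109.9 CPM with aggregates and 68.9, 46.8 and 69.2 CPM with sham, where replicate 1 of the aggregate group lay among the sham values. Ccl5 and Cxcl2 had log2 fold changes of 1.25 (SE 0.54) and 0.64 (SE 0.26) under C13 beside 1.63 (SE 0.54) and 0.81 (SE 0.26) in DMSO. In nascent RNA 11 of 13 genes of the list were higher, with a median of 0.48 (0.51 in DMSO), and nascent Cxcl2 had 694, 1048 and 1013 CPM with aggregates and 372, 683 and 274 CPM with sham. Il6 had 6, 6 and 0 total reads in the C13 + TDP-43 libraries and none in C13 + sham, and did not pass the filter on low counts.

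Genes of NF-kB itself and of its feedback were higher for 19 of 29 in total RNA, with a median of 0.07, and 19 of 28 in nascent RNA, with a median of 0.21. Total Traf1, an adaptor of TNF receptors, had 99.0, 110.0 and 133 CPM in C13 + TDP-43, above the 67.9, 68.8 and 68.2 CPM in C13 + sham (0.74, SE 0.19, edgeR adjusted p = 0.343). Tnip2, an inhibitor of NF-kB signalling, had 31.1, 23.6 and 35.2 CPM with aggregates and 13.9, 9.52 and 16.8 CPM with sham. Nascent Rela, the p65 subunit, had 73.3, 83.4 and 126 CPM with aggregates and 3.38, 12.4 and 21.8 CPM with sham (2.91, SE 1.03, edgeR adjusted p = 0.53), and nascent Nfkbid, an atypical IkB protein, had 169, 36.4 and 54.4 CPM with aggregates and 5.07, 5.31 and 11.9 CPM with sham. Nascent Nlrp3, the inflammasome sensor that NF-kB primes, pointed the other way with 34.2, 74.5 and 50.7 CPM with aggregates and 206, 60.2 and 651 CPM with sham, which overlap. Of 12 inflammasome genes in total RNA 7 were higher, with a median of 0.03.

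Outside the immune lists, the gene with the smallest p in total RNA was Prpf19 (chr19:10895231-10909559, plus strand), a ubiquitin ligase of the spliceosome. It had 901, 1137 and 1074 CPM in C13 + TDP-43 and 376, 281 and 367 CPM in C13 + sham. The 2 groups were far apart and each was tight (1.60, SE 0.25, edgeR adjusted p = 0.144, DESeq2 adjusted p = 2.66e-07). In DMSO the order was the other way round, with a mean of 470.5 CPM with aggregates and 733 CPM with sham (-0.64, SE 0.25), so the 2 log2 responses were 2.24 apart (SE 0.35, edgeR adjusted p = 0.0741). Nascent Prpf19 had 313, 975 and 1199 CPM with aggregates and 666, 343 and 27.8 CPM with sham, which overlap.

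The rule for the 10 highest-ranked genes higher in total RNA took, beside Prpf19, Cxcl10 and Bcl2a1b, a set of 7 genes of unlike function. Agpat4, an acyltransferase of phospholipid synthesis, had 386, 334 and 235 CPM in C13 + TDP-43 and 56.0, 102 and 91.0 CPM in C13 + sham (1.94, SE 0.34, edgeR adjusted p = 0.226), though it overlaps a pseudogene on its strand. Pabpn1, which binds poly(A) tails in the nucleus, had 686, 962 and 537 CPM with aggregates and 373, 344 and 296 CPM with sham, and it also shares its strand with an overlapping gene. Chp1, a calcium-binding partner of sodium-proton exchangers, had 155, 207 and 240.4 CPM with aggregates and 104, 43.8 and 56.1 CPM with sham. All 3 were separated by group. Ube2m, the enzyme that passes NEDD8 to cullins, had 144, 91.1 and 150.4 CPM with aggregates and 45.04, 58.5 and 63.1 CPM with sham, and Vat1, a vesicle membrane protein, had 40.1, 47.9 and 63.1 CPM with aggregates and 22.7, 13.9 and 17.2 CPM with sham. Srgn, the core protein of granule proteoglycans in haematopoietic cells, had 106, 160.4 and 159 CPM with aggregates and 80.8, 57.2 and 68.8 CPM with sham. Map4k3, a kinase of the MAP kinase cascade, had 14.5, 20.3 and 45.1 CPM with aggregates and 8.14, 6.65 and 4.89 CPM with sham. Bcl2a1b, an anti-apoptotic target of NF-kB, had 518, 439 and 478 CPM with aggregates and 275, 168 and 129 CPM with sham, and it has near-identical copies among which reads could be split. The groups did not overlap for any of these genes, as the rule requires.

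The same rule took 10 genes lower in total RNA. Gcn1l1, which senses stalled ribosomes and activates the kinase GCN2, had 34.4, 30.8 and 33.2 CPM in C13 + TDP-43 and 61.0, 62.3 and 66.3 CPM in C13 + sham, the tightest separation of the set (-0.95, SE 0.22, edgeR adjusted p = 0.272). Suz12, a subunit of Polycomb complex PRC2, had 187, 145 and 113 CPM with aggregates and 305, 274 and 282 CPM with sham. Hdac5, a class IIa histone deacetylase, had 8.84, 15.3 and 13.7 CPM with aggregates and 32.3, 30.6 and 35.6 CPM with sham. Pex6, an ATPase that recycles the peroxisomal import receptor, had 9.44, 11.1 and 8.78 CPM with aggregates and 19.2, 25.0 and 32.1 CPM with sham. Bcl9l, a coactivator of beta-catenin, and Epn2, an endocytic adaptor, had their highest values in C13 + sham replicate 3, at 63.3 and 73.8 CPM. Their log2 fold changes of -1.74 (SE 0.39) and -2.99 (SE 0.81) were -1.17 and -1.43 without the 2 libraries that stood apart. Dhx34, a helicase of nonsense-mediated decay, Pih1d1, a cofactor of the R2TP chaperone complex, and Chpf2, an enzyme of chondroitin synthesis, had log2 fold changes of -2.31, -1.48 and -1.03. The tenth was mt-Rnr2, the large mitochondrial ribosomal RNA, with 11060, 9350 and 8019 CPM with aggregates and 13184, 14113 and 21921 CPM with sham (-0.79, SE 0.22).

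Several of the higher genes stood the other way round in DMSO. Of the 10 higher genes, 6 were lower with aggregates in DMSO, namely Prpf19, Agpat4, Vat1, Chp1, Ube2m and Pabpn1, and for 3 of them all DMSO + TDP-43 libraries were below all DMSO + sham libraries. Over all 791 total genes with every C13 + TDP-43 library above every C13 + sham library, 491 were lower in DMSO (62.1%), beside 51.5% of all genes tested. The reverse separation in DMSO held for 88 of the 791 (11.1%), beside 6.41% of all genes, and the same separation for 30 (3.79%), beside 5.49%. The 2 arms share no library. Across 11827 genes the Spearman correlation of the 2 responses was -0.075 in total RNA, and it was -0.053 across 7078 genes in nascent RNA. These are descriptions across genes, which are not independent replicates. The test of the difference between the responses called 0 genes in total and 0 in nascent RNA. Before adjustment, 941 total (7.96%) and 537 nascent genes (7.59%) had a p under 0.05. In total RNA the next genes were mt-Tw, Agpat4 and Ube2m, at differences of 2.60 (SE 0.41, edgeR adjusted p = 0.0741), 2.86 (SE 0.48, edgeR adjusted p = 0.102) and 1.99 (SE 0.35, edgeR adjusted p = 0.114). In nascent RNA the smallest adjusted p was 0.445, for genes that included Ss18, a subunit of BAF chromatin remodelling complexes, with 293, 107 and 604 CPM in C13 + TDP-43 and 74.4, 14.2 and 47.6 CPM in C13 + sham, beside means of 32.5 CPM in DMSO + TDP-43 and 456 CPM in DMSO + sham.

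**Figure D2:**
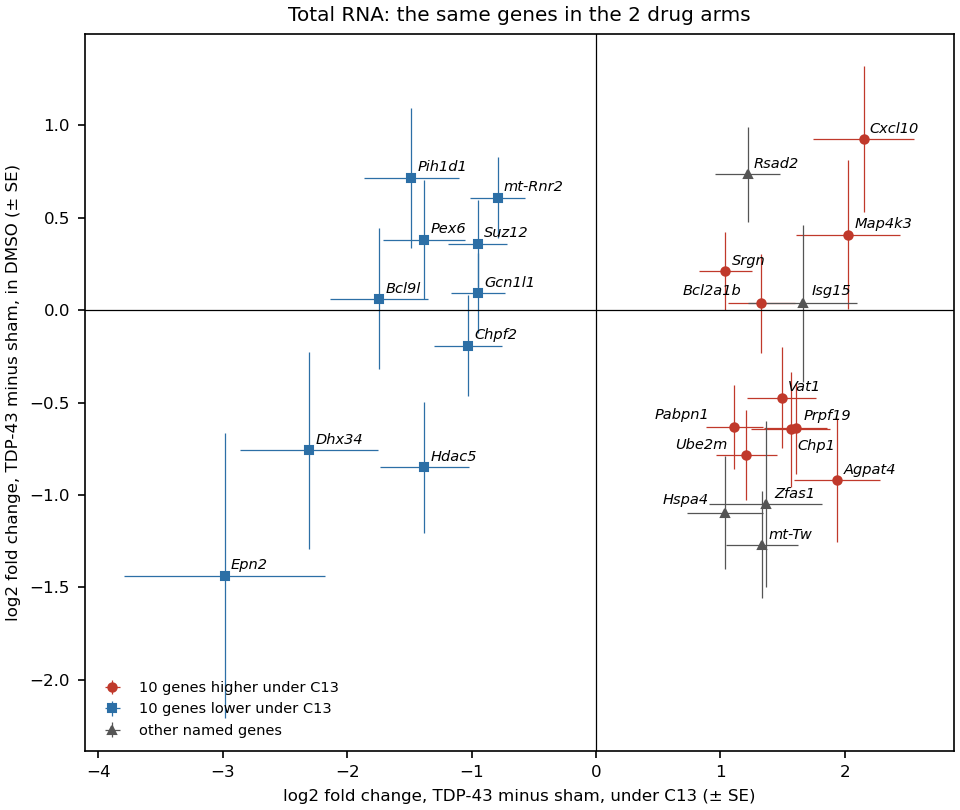
Log2 fold change of aggregates over sham in total RNA under C13 (horizontal) and in DMSO (vertical), with standard errors, for the 10 named genes higher under C13, the 10 lower and 5 further genes of the text. Of the 10 higher genes 6 lie below 0 on the vertical axis, among them Prpf19 at -0.64, while Cxcl10 lies above it at 0.93.

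In nascent RNA the largest separations came from genes that had no nascent read at all in 1 of the 2 groups. Klhdc3, a substrate receptor of a cullin ubiquitin ligase, had 139, 183 and 118 CPM in C13 + TDP-43 and no read in the 3 C13 + sham libraries (edgeR adjusted p = 0.154). Its 438 reads were at least 84.2-fold higher than the floor of 3 counts over the sham group. In DMSO it averaged 60.4 CPM with aggregates and 60.8 CPM with sham. Vps25, a subunit of ESCRT-II, had 46.4, 77.7 and 39.9 CPM with aggregates and no sham read, at least 32.1-fold higher than that floor, and it overlaps Ramp2 on its strand. Rcan1, an inhibitor of calcineurin, had 24.4, 71.3 and 38.7 CPM with aggregates and no sham read, at least 26.9-fold higher. Total Klhdc3 was read in both groups, at 73.1 ± 6.74 CPM with aggregates and 63.3 ± 25.1 CPM with sham (SD, n = 3 each), which overlap.

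The other nascent genes ranked as higher were Fbxo22, Map4, Zfand6, Rpl9, Fkbp2, Lrrc47 and Gm16286. Map4, a protein that stabilises microtubules, had 257, 300.4 and 319 CPM in C13 + TDP-43 and 72.7, 44.2 and 9.92 CPM in C13 + sham (2.78, SE 0.69, edgeR adjusted p = 0.53), and shares its strand with 3 overlapping genes. Zfand6, a zinc finger protein that binds ubiquitin, had 187, 311 and 265 CPM with aggregates and 15.2, 10.6 and 23.8 CPM with sham. Fbxo22, an F-box protein, had 48.9, 51.8 and 191 CPM with aggregates and 0, 0 and 3.97 CPM with sham. Rpl9, Fkbp2 and Lrrc47 had log2 fold changes of 4.00, 4.25 and 3.35. None of the ranked genes overlapped between groups, as the rule requires.

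The same rule took 10 genes lower with aggregates in nascent RNA. Atp5e, the epsilon subunit of ATP synthase, had 18.3, 8.10 and 7.25 CPM in C13 + TDP-43 and 171, 93.8 and 282 CPM in C13 + sham (-4.01, SE 0.95, edgeR adjusted p = 0.486). Mtx1, which takes part in import at the outer mitochondrial membrane, had 73.3, 113 and 33.8 CPM with aggregates and 575, 467 and 183 CPM with sham. Mff, the receptor that recruits the fission enzyme DRP1, had 7.33, 4.86 and 7.25 CPM with aggregates and 193, 95.6 and 23.8 CPM with sham, and total Mff had 152, 199 and 240.2 CPM with aggregates and 169, 209 and 218 CPM with sham. Its nascent log2 fold change was -3.99 (SE 0.93) under C13 and -4.72 (SE 0.96) in DMSO, and it overlaps another gene on its strand. Arpc4, a subunit of the ARP2/3 complex that branches actin, had 386, 505 and 329 CPM with aggregates and 1258, 1366 and 1127 CPM with sham (-1.62, SE 0.44). Rad9a, of the DNA damage checkpoint clamp, and Tmem116, a membrane protein, had no read in C13 + TDP-43, while their 70 and 81 reads in C13 + sham make them at least 40.5-fold and 46.8-fold lower with aggregates by the floor of 3 counts over the group. Lrrc40, a leucine-rich repeat protein, had 50.1, 33.2 and 8.46 CPM with aggregates and 341, 419 and 472 CPM with sham, and Epb41, Iqsec2 and Rps14 completed the 10 lower genes.

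**Figure D3:**
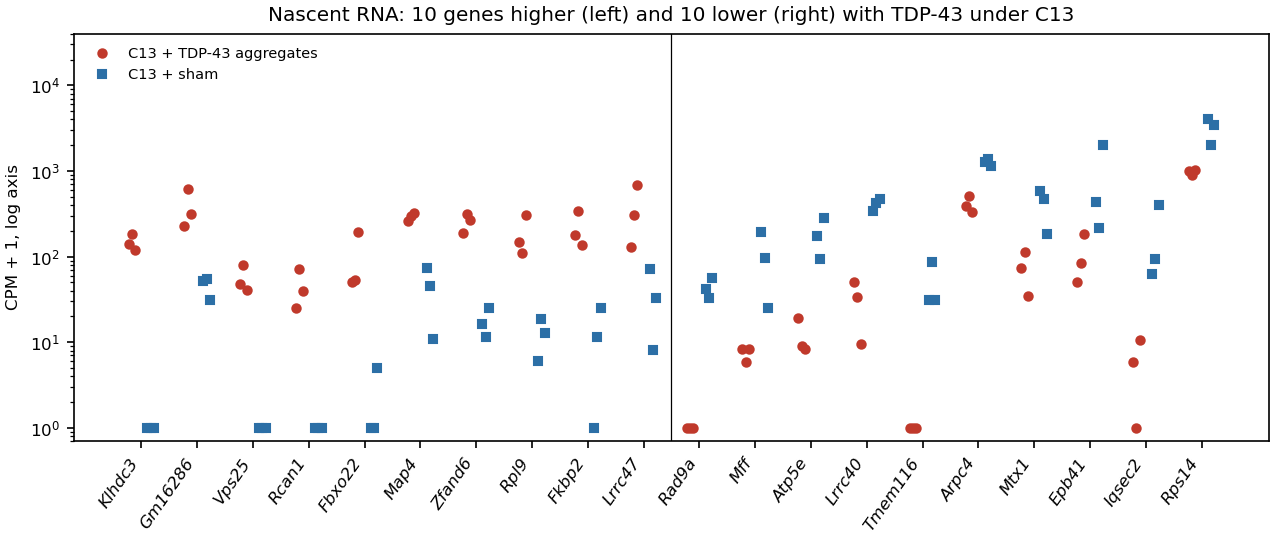
Nascent CPM + 1 (log axis) of the 10 genes higher and the 10 genes lower with aggregates that the naming rule took, in each library given C13 (circles C13 + TDP-43, squares C13 + sham). No gene overlaps between groups, as the rule requires. Klhdc3, Vps25 and Rcan1 sit at 0 reads in the sham libraries as Rad9a and Tmem116 do in the aggregate libraries.

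The nascent reads of each gene were also set against its other reads. Of 7078 genes 0 passed in edgeR, and 403 met an unadjusted p under 0.05 (5.69%). Klhdc3 had the smallest adjusted p, at 0.136, and Rcan1 and Lrrc40 followed at 0.382. For Lrrc40 the nascent reads were lower against the other reads by a log2 difference of -4.22 (SE 0.87), and for Zfand6 they were higher by 3.86 (SE 0.89). Tardbp itself had 803, 814 and 1006 total CPM in C13 + TDP-43 and 761, 738 and 706 CPM in C13 + sham (0.25, SE 0.18). Nascent Tardbp had 566, 2229 and 1528 CPM with aggregates and 659, 779 and 157 CPM with sham, with aggregate replicate 1 among the sham values (1.44, SE 0.57, edgeR adjusted p = 0.565). Mok, the named target of C13, had 1.53, 8.22 and 1.33 total CPM with aggregates and 0, 10.7 and 0.965 CPM with sham, a level too low and too uneven to compare.

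Host genes of small nucleolar RNAs, whose spliced transcripts are decayed quickly by nonsense-mediated decay, and other nuclear long non-coding RNAs had 9 of 11 tested members higher in total RNA, out of 26 listed, with 4 higher and 0 lower at an unadjusted p under 0.05 (5.12% and 3.71% of all genes). Their median was 0.50, against -0.24 in DMSO. It was 0.26 without C13 + TDP-43 replicate 1, 0.83 without C13 + sham replicate 1 and 0.79 without the 2 libraries that stood apart. Snhg1 had 105, 108 and 128 CPM in C13 + TDP-43 and 71.1, 56.7 and 40.01 CPM in C13 + sham, with no overlap (1.03, SE 0.30, edgeR adjusted p = 0.409). Zfas1 had 57.0, 101 and 79.6 CPM with aggregates and 43.9, 40.05 and 8.59 CPM with sham, and in DMSO it averaged 33.5 CPM with aggregates and 69.4 CPM with sham. Epb41l4aos had 89.0, 119.7 and 188 CPM with aggregates and 69.5, 57.3 and 37.3 CPM with sham. Gas5, the best-known host gene, had 458, 329 and 254 CPM with aggregates and 372, 472 and 154 CPM with sham, which overlap (0.06, SE 0.37). Each of these hosts overlaps its small RNAs on the same strand, so the counts could hold both. In nascent RNA 5 of 8 members were higher, among them Snhg1 with 193, 492 and 197 CPM with aggregates and 60.9, 92.0 and 0 CPM with sham.

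By annotation class, 122 of 179 lincRNAs (68.2%) and 111 of 164 antisense genes (67.7%) were higher in total RNA, with medians of 0.50 and 0.74, against -0.13 and -0.23 in DMSO. In nascent RNA 16 of 30 lincRNAs and 9 of 14 antisense genes were higher. Their nascent medians were 0.12 and 0.45, against 0.40 and -0.08 in DMSO. The sources used here do not say that the counting used strand, so reads of an antisense gene and its partner may not be told apart. Protein-coding genes in total RNA had 48.3% higher and a median of -0.02. LincRNAs and antisense genes were read at a low level, with medians of 1.08 and 0.899 total CPM in the DMSO libraries. Protein-coding genes had a median of 21.2 CPM there. The class medians were not recomputed without single libraries, and the part of low counts in them was not tested. Of 16 genes of the mitochondrial genome tested, which are ribosomal and transfer RNAs, 12 were lower with aggregates in total RNA with a median of -0.50, and 10 of 15 were lower in nascent RNA with a median of -0.83. An exception was mt-Tw, the tryptophan transfer RNA, with 95.1, 129 and 73.6 CPM in C13 + TDP-43 and 33.2, 41.6 and 43.3 CPM in C13 + sham, and it overlaps mt-Nd2 on its strand. In DMSO mt-Tw averaged 35.4 CPM with aggregates and 85.4 CPM with sham. Protein genes of the mitochondrial genome were not analysed here.

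Chaperone genes, which fold proteins and take aggregates apart, were higher for 13 of 19 in total RNA with a median of 0.20 (-0.11 in DMSO), and for 9 of 19 in nascent RNA with a median of -0.13. Total Hspa4, an HSP110 nucleotide exchange factor that helps to dissolve aggregates, had 187, 241 and 296 CPM in C13 + TDP-43, above the 139, 104 and 111 CPM in C13 + sham (1.04, SE 0.30, edgeR adjusted p = 0.42). Its mean in DMSO was 138 CPM with aggregates and 295 CPM with sham (-1.10, SE 0.30), a difference between the arms of 2.13 (SE 0.43, edgeR adjusted p = 0.132). Hspd1, the mitochondrial chaperonin HSP60, had 767, 935 and 1002 CPM with aggregates and 591, 733 and 565 CPM with sham. Bag3, the co-chaperone of aggregate autophagy, had 53.8, 66.6 and 72.8 total CPM with aggregates and 29.3, 36.1 and 47.2 CPM with sham, and its nascent reads gave 173, 56.7 and 163 CPM with aggregates and 23.7, 8.85 and 19.8 CPM with sham. Hsp90ab1, the constitutive HSP90, was lower, with 598, 567 and 488 CPM with aggregates and 787, 702 and 629 CPM with sham. Of the 19 members tested in total RNA, 3 had all aggregate libraries above all sham libraries and 1 had all below. Among all total genes these separations held for 6.69% and 6.07%.

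Genes of energy and protein synthesis were described by their medians. Of 80 cytosolic ribosomal protein genes in total RNA 64 were lower and 16 higher, with a median of -0.22 (-0.25 in DMSO). That median was -0.50 without C13 + TDP-43 replicate 1, -0.01 without C13 + TDP-43 replicate 3, 0.07 without C13 + sham replicate 2 and -0.44 without the 2 libraries that stood apart. In nascent RNA it was -0.05, with 35 of 78 genes higher. Rpl4 was an exception in total RNA, with 671, 530.4 and 418 CPM in C13 + TDP-43 and 391, 323 and 286 CPM in C13 + sham, and it hosts small nucleolar RNAs that overlap it. Nuclear genes of the respiratory chain were higher for 25 of 55 in total RNA, with 7 higher and 2 lower at an unadjusted p under 0.05 (5.12% and 3.71% of all genes) and a median of -0.05. They were lower for 36 of 54 in nascent RNA, with 2 higher and 5 lower at an unadjusted p under 0.05 (5.19% and 3.26% of all nascent genes) and a median of -0.31. Total Ndufb3, a subunit of complex I, had 836, 1029 and 864 CPM with aggregates and 648, 476 and 359.5 CPM with sham (0.88, SE 0.24, edgeR adjusted p = 0.361). Total Sdhc, of complex II, had 267, 332 and 413 CPM with aggregates and 240.3, 155 and 180.4 CPM with sham, and Cox6b1, of complex IV, had 1216, 1229 and 1335 CPM with aggregates and 729.8, 1136 and 616 CPM with sham. Nascent Ndufa6, of complex I, had 215, 117 and 128 CPM with aggregates and 426, 411 and 655 CPM with sham, so the clearest members in total and in nascent RNA were different genes with opposite signs.

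Members of further lists, with the medians of those lists, were as follows. Tapbpl, which edits peptides on MHC class I, had 26.3, 29.0 and 19.2 CPM in C13 + TDP-43 and 13.6, 6.95 and 4.48 CPM in C13 + sham (1.58, SE 0.39, edgeR adjusted p = 0.291), in a list of 20 MHC class I and immunoproteasome genes of which 12 were higher. Aen, a p53-induced nuclease, had 128, 143 and 109 nascent CPM with aggregates and 35.5, 0 and 0 CPM with sham. The 10 p53 targets tested in nascent RNA had a median of 1.62 with 6 higher and 4 lower, and 15 in total RNA had a median of 0.24 with 9 higher. Lamp2, a lysosomal membrane protein, had 136, 134 and 199 nascent CPM with aggregates and 394, 336 and 482 CPM with sham, and 23 of 34 lysosomal genes were lower in nascent RNA with a median of -0.25, while 19 of 37 were lower in total RNA. RNA-binding proteins and splicing factors were higher for 17 of 25 in total RNA, with a median of 0.11, and for 8 of 24 in nascent RNA, with a median of -0.25. Srsf1, a splicing factor, had 396, 502 and 435 CPM with aggregates and 373, 259 and 329 CPM with sham, and Clk4, a kinase of such factors, had 3.13, 2.77 and 13.1 CPM with aggregates and 18.4, 10.4 and 36.4 CPM with sham. ATF4 targets of the integrated stress response were lower for 15 of 21 in total RNA with a median of -0.12, and unfolded protein response genes were higher for 13 of 23 with a median of 0.06. NRF2 antioxidant targets were higher for 12 of 24, homeostatic microglial genes for 10 of 22 and lysosomal genes for 18 of 37, beside 49.2% of all genes. Disease-associated microglial genes were higher for 15 of 24 with a median of 0.11, and 10 of 23 were higher in nascent RNA with a median of -0.05. Mitochondrial fission and fusion genes were higher for 6 of 18 in total RNA, with a median of -0.09, and for 11 of 15 in nascent RNA, with a median of 0.35. Total Mfn2, which fuses outer membranes, had 113, 147 and 157 CPM with aggregates and 89.2, 79.2 and 114 CPM with sham.

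**Figure D4:**
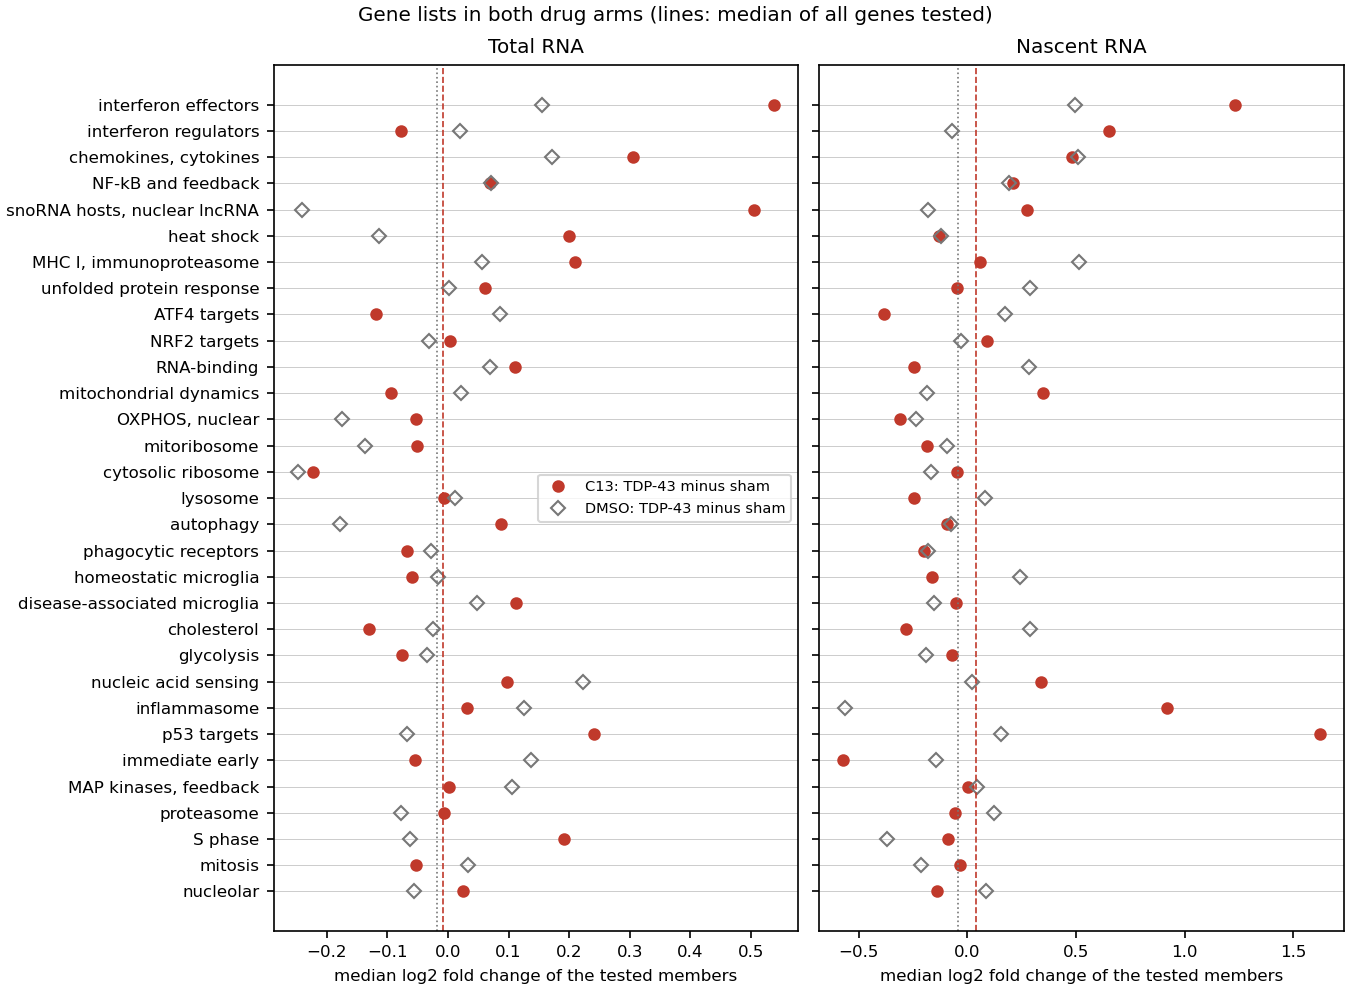
Median log2 fold change of aggregates over sham for the tested members of each pathway list (cell type marker lists not drawn), under C13 (filled circles) and in DMSO (open diamonds), in total RNA (left) and nascent RNA (right); vertical lines are the medians of all genes tested. Under C13 interferon effectors are highest in total RNA at 0.54, followed by snoRNA hosts and nuclear lncRNAs at 0.50, and in nascent RNA p53 targets at 1.62 lie above interferon effectors at 1.23.

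The libraries of the 2 groups also differed in how many genes they reached. When each nascent table was thinned to 552042 reads, 8215, 7919 and 7841 genes had a read in C13 + TDP-43, against 7395, 7291 and 6750 in C13 + sham. All aggregate libraries were above all sham libraries, with means of 7992 ± 197 and 7145 ± 346 (SD, n = 3 each, two-sided exact permutation p = 0.1, the smallest possible). In DMSO the means were 7635 with aggregates and 8387 with sham (exact permutation p = 0.3). In total RNA thinned to 17436397 reads, 12585, 12151 and 11841 genes were read in C13 + TDP-43 and 11718, 11891 and 11282 in C13 + sham, which overlap (exact permutation p = 0.2). In the full tables, without thinning, 122 of the tested nascent genes had no read in all C13 + sham libraries. Of these, 56 were read in all 3 C13 + TDP-43 libraries (0.791% of genes tested). The reverse numbers were 26 genes and 8 (0.113%). These counts are not matched for depth. C13 + sham libraries held 558608 to 786491 nascent reads, against 767433 to 1168511 in C13 + TDP-43. The part of depth and of the filter on low counts in this difference was not tested.

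Nascent responses were graded by expression level. With the tested nascent genes split into quintiles by their total CPM in DMSO, the median log2 fold change was 0.36 in the lowest quintile, then 0.20, 0.11 and 0.00, and -0.22 in the highest quintile. In the lowest quintile 58.5% of genes were higher with aggregates and in the highest 38.8%. The medians in DMSO were -0.11 in the lowest and 0.04 in the highest quintile. In total RNA the lowest quintile had a median of 0.15, which was 0.00 without C13 + TDP-43 replicate 1 and also without replicate 2, and the highest had 0.01. Leaving out a library moved the nascent median of the lowest quintile between 0.16, without C13 + TDP-43 replicate 1, and 0.81, without C13 + sham replicate 2, and that of the highest quintile between -0.24, without C13 + TDP-43 replicate 1, and -0.06, without C13 + sham replicate 3. Nascent counts were also scaled by the depth of the total libraries, which moves all genes of a library by the same factor. Interferon effectors and the cytokine and chemokine list then had medians of 1.46 and 0.94, beside 0.35 for all nascent genes. Such a shift leaves the standing of a list against all genes nearly fixed, so it is no check on that standing. Whether the number of genes reached, the level of a gene or the share of mitochondrial ribosomal RNA had a part in the differences of single genes was not tested.

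**Figure D5:**
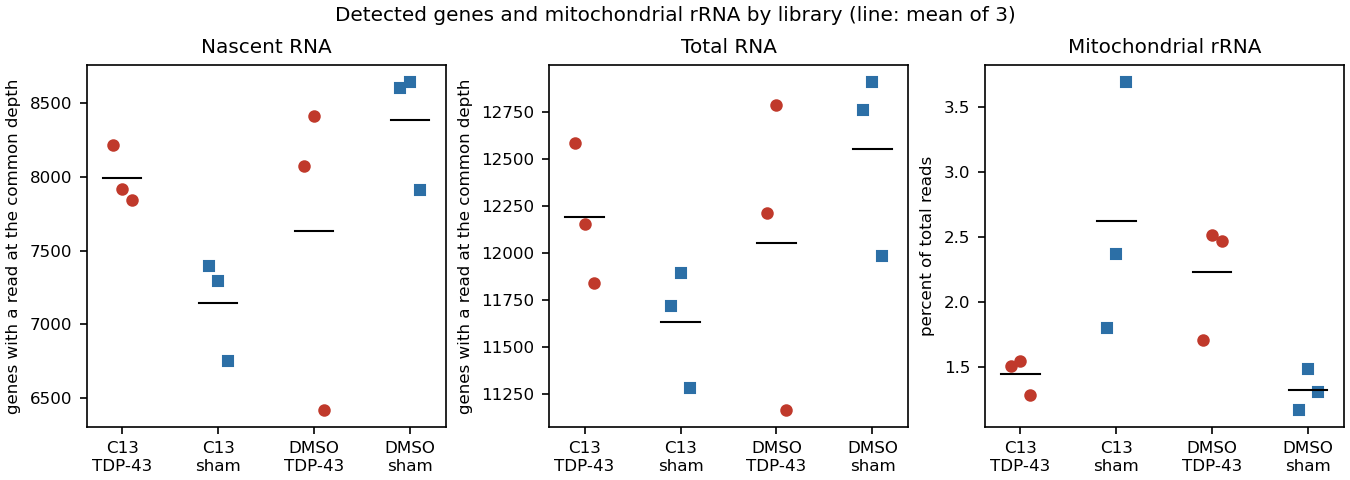
Genes with at least 1 read at a common depth in nascent RNA (left) and total RNA (middle), and mitochondrial ribosomal RNA as a percent of total reads (right), for each library of the 4 groups (circles TDP-43, squares sham, line the mean of 3). Under C13 the aggregate libraries lie above the sham libraries in nascent genes, at 7841 to 8215 against 6750 to 7395, and below them in mitochondrial ribosomal RNA.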

How the data were processed

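The authors deposited tables of raw counts per gene for 12 libraries, 1 of total and 1 of nascent reads, with 30994 genes each. The genome build is GRCm38, per the submitters' processing notes, while the aligner, counting tool, gene annotation and conversion threshold for a nascent read were not given in the sources used here. Of the gene IDs, 30940 matched the GENCODE annotation used for names and coordinates.

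Each table was scaled by itself. Genes passing filterByExpr were fitted over all 12 libraries with 4 group means, TMM scaling and edgeR 4.0.16 quasi-likelihood tests, with Benjamini-Hochberg adjustment over all genes tested (R 4.3.3). DESeq2 1.42.0 was an alternative. Nascent reads were set against the other reads of a gene with library as a term. The standard error was taken as the absolute log2 fold change divided by the square root of the F statistic of the quasi-likelihood test. CPM is the count scaled by the TMM library size. TMM factors ran from 0.646 to 1.14 in nascent RNA, where C13 + sham replicate 3 was the lowest. In total RNA they ran from 0.964 to 1.05. A group at 0 was given a floor of 3 counts over the group. Intervals and floors cover counting error only, since the reads carry no stated molecular identifiers.

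Named genes were, per table, the 10 higher and 10 lower genes with the smallest p whose libraries do not overlap and whose higher group averages 20 reads or more, the best-ranked members of each list (6 in total, 4 in nascent RNA), the 5 genes with the smallest p of each difference test and a few fixed genes. Klhdc3 in total RNA, Gas5, nascent Prpf19 and nascent Rsad2 were added after their values were seen. The members and lists were chosen with earlier results of these data known. Two-sided exact permutation tests over libraries were used for single values.

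The fit was tested on simulated data with known changes before use. Of 9932 genes with a mean above 50 total reads, 1917 had counts in all libraries that share a common factor, whose source is not given in the sources used here. A withheld item is not reported here.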

Additional observations from a re-analysis of the deposited data

Results flagged for a closer look

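Among the genes named with a fold change, 10 had all aggregate libraries on one side of all sham libraries under C13 and on the other side in DMSO. Many were named because they separate under C13, so this count is no share of all genes. In total RNA such a reversal held for 88 of the 791 separated higher genes (11.1%) and 46 of the 718 separated lower genes (6.41%). Among all total genes tested, 6.41% had every aggregate library below every sham library in DMSO, and 5.49% had every one above. In nascent RNA the reversal held for 40 of 557 (7.18%) and 26 of 370 (7.03%). Among all nascent genes tested, 6.56% had every aggregate library below every sham library in DMSO, and 3.74% had every one above. The difference between the 2 responses (C13 minus DMSO, on the log2 scale) was tested across all genes, and none had an edgeR adjusted p under 0.05. In total RNA, with aggregates higher under C13 and lower in DMSO, the difference was 2.21 for Chp1 (edgeR adjusted p = 0.132), 1.99 for Ube2m (edgeR adjusted p = 0.114) and 1.74 for Pabpn1 (edgeR adjusted p = 0.132). It was 1.05 for Adar (edgeR adjusted p = 0.478), 2.41 for Zfas1 (edgeR adjusted p = 0.313), 2.60 for mt-Tw (edgeR adjusted p = 0.0741), 2.22 for Tapbpl (edgeR adjusted p = 0.244) and 0.72 for Srsf1 (edgeR adjusted p = 0.483). The difference was -1.40 for mt-Rnr2, which was lower with aggregates under C13 and higher in DMSO (edgeR adjusted p = 0.187). In nascent RNA it was 3.73 for Map4 (edgeR adjusted p = 0.445). Single values in groups of 3 libraries were not tested for outliers.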

How the results depend on the processing

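Counts of genes with an adjusted p under 0.05 were 0 in each comparison and moved as follows. Without the filter on low counts there were 30 nascent and 124 total genes for C13 + TDP-43 against C13 + sham, 9 for nascent against other reads, and 38 nascent and 124 total genes for the difference between the drug arms. DESeq2 gave 77 nascent and 99 total genes, and 46 and 108 for the difference. Fitting only the 6 libraries given C13 called 1 total gene (Synrg), and leaving out the 2 libraries that stood apart called 1 (Smtn). These 2 libraries were chosen after seeing the data, as was the division of counts by their shared factor. Counts so divided gave 2 for the difference in total RNA (Prpf19 and mt-Tw). Leaving out each library in turn gave 0 to 1 nascent genes and 0 to 4 total genes, the 4 (Chp1, Parp6, Brd9 and Bcl2a1b) without C13 + sham replicate 1. It gave 0 to 1 for nascent against other reads, and 0 to 1 nascent and 0 to 3 total genes for the difference, the 3 (Hspa4, Agpat4 and Prpf19) without DMSO + sham replicate 2. The difference in nascent share ran between -0.117 and 0.544 percentage points, and turned negative without C13 + sham replicate 3. No gene recomputed under these settings changed sign; Gas5, Mok, total Mff and total Klhdc3 were not among them. The cause of these changes was not tested.

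With the replicate number as a block, the difference in total RNA called 2 genes (Prpf19 and mt-Tw) and the other comparisons 0. Same-numbered libraries had correlations of -0.034, -0.083 and 0.210 in total RNA, and differently numbered ones ran from -0.280 to 0.323. With 3 libraries a group, these values cannot settle whether the numbers pair the samples, and the labels state no pairing. The smallest C13 nascent library held 558608 reads. Libraries of a group differed by more than counting error, with a chi-square per degree of freedom of at least 27.68 for every pair, and the part of depth in the calls was not tested.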
